A study of Mus musculus with 6 samples.

Results

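The genes described here are 8 that encode proteins the liver secretes into blood plasma, measured in white fat of mice: Alb, Ttr, Trf, Ambp, Apoa1, Apoa2, Apob and Apoh. They are 8 of 22322 genes in the deposited table and were taken by gene symbol, after their counts in the single libraries had been seen. Those counts, high in some knockout libraries and, for all but Trf, near 0 elsewhere, are therefore a description and were not tested. The tissue was epididymal white adipose tissue, the fat pad along the epididymis. There were 3 libraries from CD44 KO mice and 3 from wild type mice, each numbered replicate 1 to 3 in the sample titles, and all the mice had received a high fat diet for 17 weeks. CD44 is a surface receptor for hyaluronan, and the study asks what it does in white fat. The labels do not state strain, sex, age, how the allele was made or whether each library came from 1 mouse, so p-values measure the spread between these libraries, which may be partly technical. No group on another diet was analysed here.

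Hepatocytes make most plasma proteins. Albumin (Alb) is the most abundant of them and carries fatty acids and hormones, transthyretin (Ttr) carries thyroid hormone and the retinol-binding protein, and transferrin (Trf) carries iron to cells. Ambp encodes a precursor that is cut into alpha-1-microglobulin, which binds heme, and bikunin, a protease inhibitor that joins the heavy chains encoded by the Itih genes. Apolipoproteins A-I and A-II (Apoa1, Apoa2) build high density lipoprotein, apolipoprotein B (Apob) is the core protein of very low and low density lipoprotein, and apolipoprotein H (Apoh) binds anionic phospholipids. Transferrin is also made outside the liver. Transcription in hepatocytes is driven by factors such as HNF4A and the C/EBP proteins.

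RefSeq promoter windows (GRCm38.p6) were found for 6 of the 8 members, all but Ttr and Trf. The stretches of 3 of them are shown because these genes share the pattern below at different strengths: Alb with the most reads among the genes near 0 in wild type fat, Apob with none in wild type fat, and Apoa2 with a few reads in every library. Each runs 5′ to 3′ and ends before the gene start in GENCODE M21. RefSeq also has a second Apoa2 start farther upstream, whose window is not shown. Capitals mark matches on either strand to GTTAAT, CAAAGTCC (an HNF4 core), CAAAGGTC (a nuclear receptor direct repeat core), CCAAT and TATAAA.
Alb (chr5:90460620-90460869, plus strand): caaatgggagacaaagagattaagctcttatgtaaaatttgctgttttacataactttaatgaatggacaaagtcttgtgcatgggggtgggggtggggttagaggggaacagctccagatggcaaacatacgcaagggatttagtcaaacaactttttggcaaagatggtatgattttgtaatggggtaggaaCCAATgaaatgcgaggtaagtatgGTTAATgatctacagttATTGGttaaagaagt
Apob (chr12:7977427-7977647, plus strand): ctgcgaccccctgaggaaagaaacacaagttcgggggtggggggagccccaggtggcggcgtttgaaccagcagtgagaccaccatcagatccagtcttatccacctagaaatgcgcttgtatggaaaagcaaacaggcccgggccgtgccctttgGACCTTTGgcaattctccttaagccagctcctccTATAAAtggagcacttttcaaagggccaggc
Apoa2 (chr1:171224804-171225053, plus strand): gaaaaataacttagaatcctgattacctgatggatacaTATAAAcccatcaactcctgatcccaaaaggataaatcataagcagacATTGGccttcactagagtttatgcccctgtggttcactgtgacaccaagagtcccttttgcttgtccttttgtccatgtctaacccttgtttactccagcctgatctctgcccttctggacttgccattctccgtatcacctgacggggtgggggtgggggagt
The Alb stretch held 1 GTTAAT, which 6.43% of 32851 mouse promoter windows held within 250 bases upstream, and 2 CCAAT matches, 1 on each strand (at least 1 in 33.8% of windows). The Apob stretch held CAAAGGTC on the reverse strand (1.01% of windows) and TATAAA (12.4%). The Apoa2 stretch held TATAAA, and CCAAT on the reverse strand, and the second Apoa2 window and the Ambp window also held CCAAT on the reverse strand. CAAAGTCC, present in 1.2% of windows, was in no window of the 6 members, and the Apoa1 and Apoh windows held none of the 5 motifs. The motifs do not overlap each other. A match is a description of letters, not of binding.

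The members lie on 7 chromosomes. In GENCODE M21 (GRCm38) all are protein coding. Alb (ENSMUSG00000029368) spans 90460897 to 90476602 on the plus strand of chromosome 5, and Ttr (ENSMUSG00000061808) spans 20665280 to 20674321 on the plus strand of chromosome 18. Trf (ENSMUSG00000032554) spans 103204001 to 103230444 on the minus strand of chromosome 9, which also holds Apoa1 (ENSMUSG00000032083, 46228580 to 46230466, plus strand). Ambp (ENSMUSG00000028356) spans 63143275 to 63154799 on the minus strand of chromosome 4. Apoa2 (ENSMUSG00000005681) spans 171225054 to 171226379 on the plus strand of chromosome 1. Apob (ENSMUSG00000020609) spans 7977648 to 8016835 on the plus strand of chromosome 12, and Apoh (ENSMUSG00000000049) spans 108343354 to 108414396 on the plus strand of chromosome 11. The span of Apoh overlaps Prkca on the other strand, and the labels do not state strandedness, so reads of Apoh and Prkca cannot be told apart there. Trf overlaps Gm20425 on its own strand, an annotated gene without a row in the table.

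Total expected counts, the estimated reads per gene, ran from 15543317 to 17790847 in CD44 KO and from 16692760 to 18765009 in wild type. Cd44 had 28, 50 and 34 expected counts in CD44 KO replicates 1 to 3, against 3091, 10580 and 6000 in wild type replicates 1 to 3. CD44 KO replicate 2 stood apart with epididymis transcripts. The summed FPKM (counts scaled for transcript length and library size) of 24 epididymis markers was 12031 there, 11.7 in CD44 KO replicate 1 and 5.55 in CD44 KO replicate 3, against 1.04 to 1.97 in wild type. In bulk tissue fewer cells of a type and less RNA per cell cannot be told apart, and neither can a few cells of another tissue and low expression in fat cells.

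Albumin mRNA had the most reads among the 7 genes that were near 0 in wild type fat. Alb had 90, 1100 and 6007 expected counts in CD44 KO replicates 1, 2 and 3, against 27, 7 and 5 in wild type replicates 1 to 3. As FPKM these were 2.66, 30.4 and 190 in CD44 KO and 0.8, 0.19 and 0.13 in wild type. All 3 CD44 KO libraries lay above all wild type libraries, and CD44 KO replicate 3 lay far above the other CD44 KO libraries. In CPM (counts scaled to library size by TMM) Alb in replicate 3 was 72.8 times and in replicate 2 12.4 times that in replicate 1. The group means were 153 ± 206 CPM in CD44 KO and 0.743 ± 0.737 CPM in wild type (SD, n = 3 each), so the SD of the CD44 KO group exceeded its mean. The fitted log2 fold change was 7.70 (SE 1.80). It was 5.59 without CD44 KO replicate 3, and 2.85 with CD44 KO replicate 1 as the only knockout library.

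Transthyretin and the Ambp precursor were read only in CD44 KO replicates 2 and 3. Ttr had 0, 17 and 126 expected counts in CD44 KO replicates 1 to 3, against 0 in every wild type library. Ambp had 0, 19 and 147 in the same CD44 KO libraries, against 0 in every wild type library. For both genes CD44 KO replicate 1 stood with the wild type libraries. With the wild type group put at a floor of 3 counts in all, pooled CD44 KO levels were at least 53.3-fold higher for Ttr and at least 61.8-fold higher for Ambp. Without CD44 KO replicate 3 these bounds were 9.25-fold and 10.3-fold. Floors and counting intervals here cover counting error only, since copies made by PCR were not marked and reads need not be separate molecules.

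The lipoprotein genes Apoa1 and Apob showed the same order of libraries. Apoa1 had 3, 50 and 347 expected counts in CD44 KO replicates 1 to 3, against 0 in every wild type library. It was at least 149-fold higher in CD44 KO, and at least 28.8-fold higher without CD44 KO replicate 3. Apob had 0, 20 and 175 expected counts in CD44 KO replicates 1 to 3, against 0 in every wild type library. Its bound was 72.6-fold, and 10.9-fold without CD44 KO replicate 3. The Apob transcript is long, so its 175 reads gave 1.23 FPKM in CD44 KO replicate 3, while the 347 reads of the short Apoa1 transcript gave 21.6 FPKM.

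Apoh and Apoa2 had the fewest reads. Apoh had 3, 13 and 63 expected counts in CD44 KO replicates 1 to 3, against 0, 0 and 1 in wild type replicates 1 to 3. The ratio of pooled CPM was 88.3, with a 95% exact binomial counting interval of 15.4 to 3530, and it was 26.1 (4.06 to 1095) without CD44 KO replicate 3. The counts of Apoa2 were 4, 8 and 46 in CD44 KO replicates 1 to 3, against 6, 1 and 4 in wild type replicates 1 to 3. Here the groups overlapped, and CD44 KO replicate 1, at 0.52 FPKM, lay below wild type replicate 1, at 0.76 FPKM. The Apoa2 ratio of 5.89 (counting interval 3.06 to 12.4) became 1.78 (0.719 to 4.45) without CD44 KO replicate 3, an interval that includes equal levels.

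Transferrin was the exception, abundant in every library. Trf had 1085, 973 and 1885 FPKM in CD44 KO replicates 1 to 3, against 1137, 581 and 793 FPKM in wild type replicates 1 to 3. The groups overlapped, and CD44 KO replicate 3 was highest. By mean FPKM Trf ranked 35 among all genes in CD44 KO and 70 in wild type. Its highest library exceeded its lowest 2.85-fold in CPM, whereas the same ratio for Alb was 1490. The fitted log2 fold change of Trf was 0.69 (SE 0.33), and 0.42 without CD44 KO replicate 3. Summed mature adipocyte markers were also highest in CD44 KO replicate 3, at 59434 FPKM, and lowest in wild type replicate 2, at 9849 FPKM, the libraries in which Trf was highest and lowest, and their part in the Trf values was not tested. In CD44 KO replicate 3, Alb reached 10.1% of the Trf level in FPKM.

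**Figure D1:**
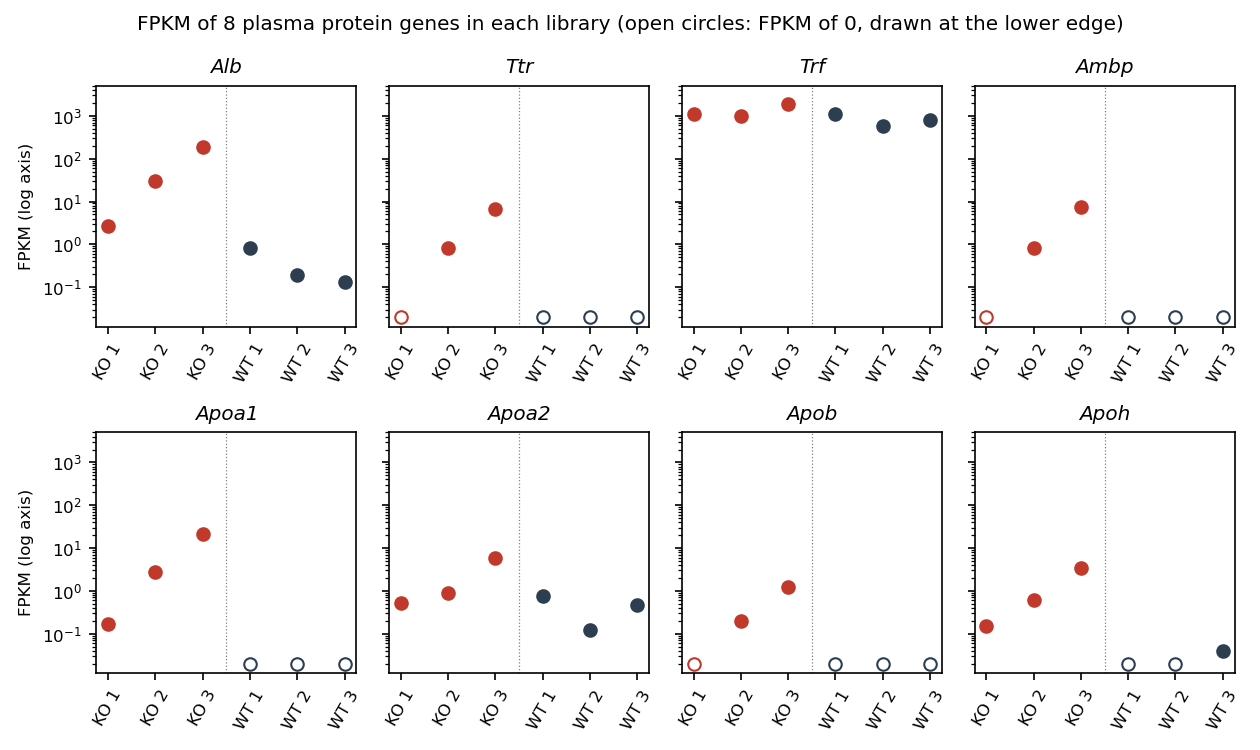
FPKM on a log axis (y) for each of the 8 genes in the single libraries (x), with CD44 KO replicates 1 to 3 in red on the left and wild type replicates 1 to 3 in dark blue on the right. Each circle is 1 library, open circles mark a listed value of 0 drawn at the lower edge, and CD44 KO replicate 3 is highest in all 8 panels, with Alb at 190 FPKM and Trf at 1885 FPKM.

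All 8 genes were highest in CD44 KO replicate 3, and 3 of them (Alb, Apoa1 and Apoh) had every CD44 KO library above every wild type library. Among 18542 genes with a count, 17.7% had all CD44 KO libraries above all wild type libraries and 22.2% were highest in CD44 KO replicate 3. The members were chosen on these counts, so nothing is read from their share. Only Alb and Trf passed the filter on low counts that preceded the test of all genes, since it asks for about 10 counts in at least 3 libraries. The summed CPM of the 7 members other than Trf were 5.94, 73.7 and 447 in CD44 KO replicates 1 to 3, against 1.95, 0.431 and 0.522 in wild type replicates 1 to 3.

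Levels relative to Alb are given for CD44 KO replicates 2 and 3, the libraries where the members were read best. Apoa1 stood at 9.21% of the Alb level in FPKM in CD44 KO replicate 2 and at 11.4% in CD44 KO replicate 3. Ambp stood at 2.76% and 3.93%, Ttr at 2.66% and 3.6%, and Apoa2 at 2.86% and 3.09% in replicates 2 and 3. Apoh (2.01% and 1.79%) and Apob (0.658% and 0.647%) had close shares in replicates 2 and 3 on the FPKM scale, which the files give to 2 decimals. For Apob this depends on the unit: its counts were 20 beside 1100 of Alb in replicate 2 and 175 beside 6007 of Alb in replicate 3, and its CPM ratio between these libraries, given below, was above that of Alb. In both libraries Apoa1 was the highest of these 6 genes and Apoh and Apob the lowest, while Ambp, Ttr and Apoa2 lay close together and changed order. The Apoa2 share in replicate 2 rests on 8 counts.

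**Figure D2:**
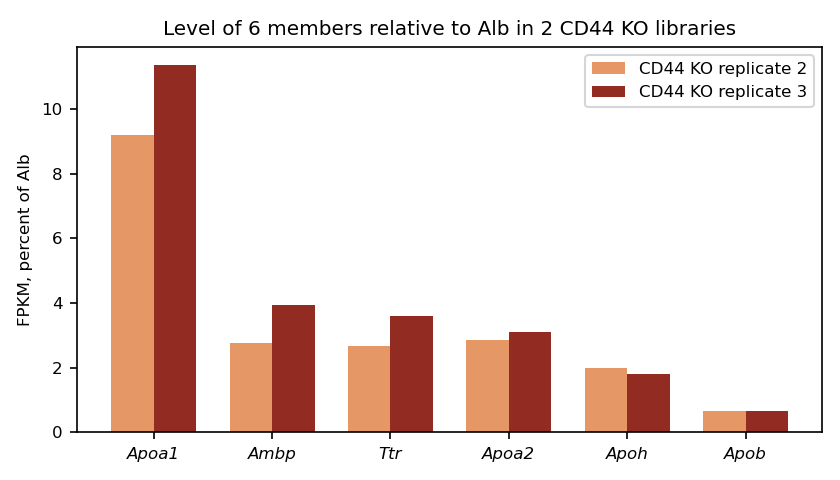
FPKM of 6 genes as a percent of the Alb FPKM in the same library (y), with CD44 KO replicate 2 in the lighter bars and CD44 KO replicate 3 in the darker bars. Apoa1 is at 9.21% and 11.4%, and Apob at 0.658% and 0.647%, in replicates 2 and 3.

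Expressed as the ratio of CPM in CD44 KO replicate 3 over CD44 KO replicate 2, Alb had 5.89 (95% counting interval 5.52 to 6.28). Apoh had 5.22 (2.85 to 10.3), Apoa1 7.48 (5.55 to 10.3), Ttr 7.99 (4.8 to 14.1), Ambp 8.34 (5.15 to 14.2) and Apob 9.43 (5.92 to 15.8). Trf had a ratio of 1.66 (1.64 to 1.68), the lowest among the members compared. These ratios set 1 library against 1 library on the counts by which the genes were chosen, and their intervals hold counting error only, so they describe those libraries and were not tested against each other.

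Other liver plasma protein genes with few reads in wild type fat gave ratios on both sides of 1. With at least 10 counts in both CD44 KO libraries and at most 1 count in any wild type library, 7 genes of a list of 70 others could be compared, and their ratios ran from 2.91 to 12 with a median of 8.29. The fibrinogen beta and gamma chain genes Fgb and Fgg had 756 and 620 expected counts in CD44 KO replicate 3, 68 and 64 in replicate 2, and 0 in CD44 KO replicate 1 and in every wild type library. Their ratios were 12 (9.34 to 15.6) and 10.4 (8.06 to 13.7). Azgp1 was lowest of the 7 at 2.91 (1.71 to 5.13). The 7 genes passed this limit only through the CD44 KO libraries. Just past it, with 2 to 4 counts summed over wild type, ratios ran from 0.367 for Proc to 9.49 for Kng1. Proc, which encodes the anticoagulant protein C, had 47 counts in CD44 KO replicate 2 and 16 in CD44 KO replicate 3, a ratio of 0.367 (0.194 to 0.659). Klkb1, the plasma kallikrein gene, had a ratio of 0.730 (0.332 to 1.69). This comparison, and the naming of Fgb, Fgg, Azgp1, Klkb1, Cps1, Uox, Cyp3a11, Gnmt, Hnf4a, Sult2a1, Asgr1, Slc10a1, Cyp7a1, Ahsg, Kng1, Hpx, Tfrc, Itih3, Itih5, Mttp and single markers of other cell types here and below, were chosen after the values were seen.

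**Figure D3:**
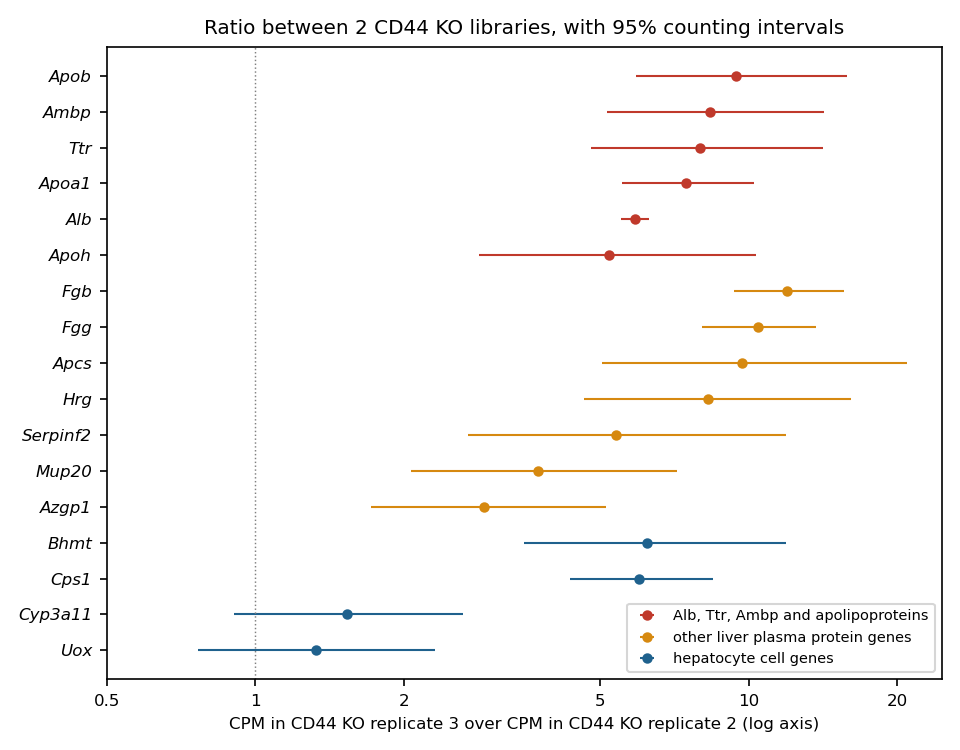
Ratio of CPM in CD44 KO replicate 3 over CPM in CD44 KO replicate 2 on a log axis (x) for single genes (y), with bars for 95% exact binomial counting intervals and a dotted line at equal levels. Red marks Alb, Ttr, Ambp and apolipoprotein genes, orange 7 other liver plasma protein genes and blue 4 hepatocyte cell genes, both with at most 1 count in any wild type library. Fgb is highest at 12, and the intervals of Cyp3a11 and Uox cross 1.

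Genes that hepatocytes use inside the cell were also read in CD44 KO replicates 2 and 3. Cps1, the urea cycle enzyme carbamoyl phosphate synthetase, had 0, 44 and 245 expected counts in CD44 KO replicates 1 to 3, against 0 in every wild type library. Its ratio of replicate 3 over replicate 2 was 6.0 (4.34 to 8.47). The urate oxidase gene Uox and the drug-metabolising Cyp3a11 had ratios of 1.33 (0.766 to 2.32) and 1.53 (0.904 to 2.64). The glycine methyltransferase gene Gnmt had the other order, with 4.02 FPKM in CD44 KO replicate 2 and 2.18 in CD44 KO replicate 3. Replicate 2 is the library with epididymis transcripts, and their part in these values was not tested. Of 45 hepatocyte cell genes, 13, 19 and 29 had at least 10 counts in CD44 KO replicates 1 to 3, against 8, 7 and 7 in wild type replicates 1 to 3. Their median FPKM was 0.02, 0.19 and 0.54 in CD44 KO and 0.02, 0 and 0 in wild type. The summed FPKM of the list ran from 1865 to 3053 in CD44 KO and from 80.2 to 490.1 in wild type. Cyp2e1, a cytochrome gene that fat also expresses, alone had 1736, 2109 and 2874 FPKM in CD44 KO, against 368, 14.6 and 26.6 FPKM in wild type. Several defining hepatocyte genes had few counts, most of them in CD44 KO replicate 3. Asgr1, a subunit of the asialoglycoprotein receptor, had 0, 3 and 18 in CD44 KO replicates 1 to 3, against 0 in every wild type library. The bile acid transporter gene Slc10a1 had 0, 1 and 14 in CD44 KO, against 1, 0 and 0 in wild type, and Cyp7a1, the rate-limiting enzyme of bile acid synthesis, had 0, 3 and 10 in CD44 KO, against 0, 1 and 0 in wild type. The methyltransferase gene Bhmt had 15, 14 and 81 in CD44 KO, against 1, 0 and 0 in wild type. Sult2a1 had no counts in any library. Hnf4a, which encodes the liver transcription factor named above, had 60, 3 and 36 expected counts in CD44 KO replicates 1 to 3, against 2, 6 and 8 in wild type, and so was lowest of the CD44 KO libraries in replicate 2. Whether hepatocyte RNA accounts for the members' counts was not tested.

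Of the 69 other liver plasma protein genes found in the table, 28, 46 and 61 had at least 10 counts in CD44 KO replicates 1 to 3, against 35, 30 and 33 in wild type replicates 1 to 3. CD44 KO replicate 3 was the highest library for 46 of the 67 with a count (68.7%), and for 31 of 44 hepatocyte cell genes with a count (70.5%), beside 22.2% of all genes. The lists were chosen with earlier results of these data known, and some of their genes had only a few counts. These shares are therefore a description and were not tested. The median FPKM of the plasma protein list was 0.19, 0.87 and 3.58 in CD44 KO and 0.28, 0.16 and 0.27 in wild type. Ahsg (fetuin A) had 0.05, 3.11 and 40.3 FPKM in CD44 KO, against 0.28, 0.34 and 0.53 in wild type. Kng1 (kininogen) had 0, 1.05 and 8.75 FPKM in CD44 KO, against 0, 0.06 and 0 in wild type. The Serpina1 genes, near-identical copies among which reads may be split, included Serpina1e with 0.38, 5.19 and 59.5 FPKM in CD44 KO, against 0.89, 0.17 and 0.34 in wild type. Hpx, which encodes the heme carrier hemopexin, had 0.24, 2.4 and 32.5 FPKM in CD44 KO, against 9.79, 2.74 and 16.1 in wild type. CD44 KO replicates 1 and 2 lay below all wild type libraries for this gene and CD44 KO replicate 3 above them.

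**Figure D4:**
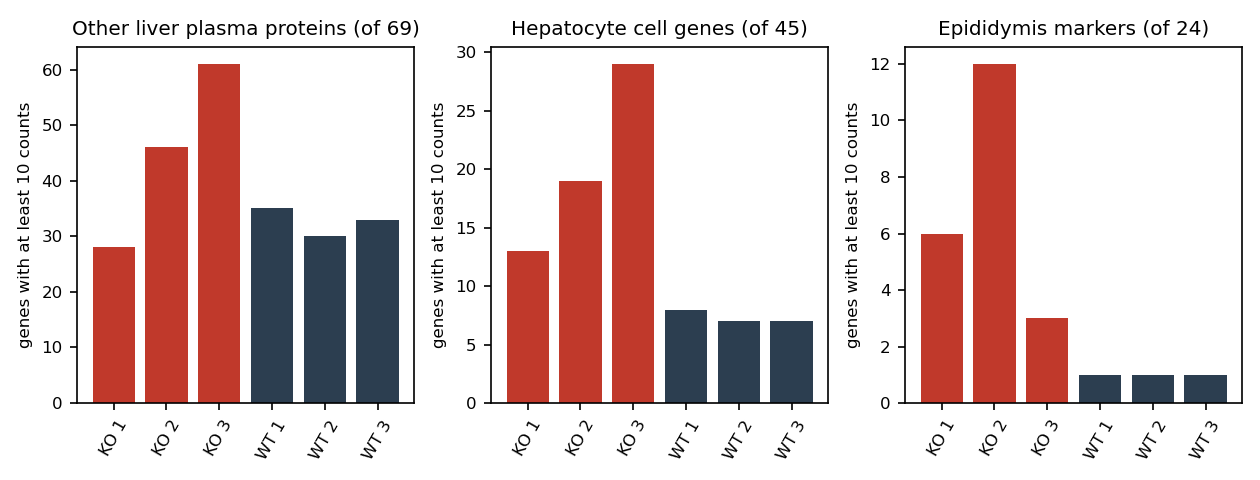
Number of genes with at least 10 expected counts (y) in each library (x) for 69 other liver plasma protein genes, 45 hepatocyte cell genes and 24 epididymis markers, with CD44 KO libraries in red and wild type libraries in dark blue. The first 2 lists peak in CD44 KO replicate 3 at 61 and 29 genes, and the epididymis markers in CD44 KO replicate 2 at 12.

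The test across all genes called few of these genes. Of 13829 genes tested, 1.74% were called higher and 0.882% lower in CD44 KO by edgeR's quasi-likelihood test at a Benjamini-Hochberg adjusted p under 0.05. Of 36 other liver plasma protein genes that passed the filter, 2 rose and 1 fell. Their median log2 fold change was 0.52, beside 0.03 over all genes tested, and it was -0.50 without CD44 KO replicate 3. The copper-carrying ferroxidase gene Cp (ceruloplasmin) averaged 187 ± 21.1 CPM in CD44 KO and 62.4 ± 5.69 CPM in wild type (SD, n = 3 each; edgeR log2 fold change 1.59 with SE 0.16 and adjusted p 0.0221). Agt, which encodes angiotensinogen, averaged 320 ± 53.7 CPM in CD44 KO and 41.4 ± 26.0 CPM in wild type (edgeR log2 fold change 2.95 with SE 0.50 and adjusted p 0.0438). The genes Cp and Agt had at least 335 expected counts in every library of both genotypes, and their CD44 KO libraries lay close together, unlike those of Alb. Summed mature adipocyte markers ran from 34588 to 59434 FPKM in CD44 KO and from 9849 to 29407 FPKM in wild type, and their part in these calls was not tested. The call of Cp was lost without CD44 KO replicate 3, wild type replicate 2 or wild type replicate 3 (edgeR adjusted p 0.0812, 0.100 and 0.189). The call of Agt was lost without any of these 3 and also without CD44 KO replicate 2 (edgeR adjusted p 0.0747 to 0.247).

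The most abundant other plasma protein mRNAs in this fat were not called. The hemoglobin-binding haptoglobin gene Hp stood at 2121 ± 762 CPM in CD44 KO and 7127 ± 3875 CPM in wild type (log2 fold change -1.75, edgeR adjusted p 0.105). Apoe, the apolipoprotein of lipoprotein remnants, which macrophages and adipocytes also make, stood at 5523 ± 1152 CPM in CD44 KO and 2813 ± 281 CPM in wild type (log2 fold change 0.97, edgeR adjusted p 0.0875). Rbp4, the retinol carrier that travels with transthyretin, had 370, 245 and 397 CPM in CD44 KO, against 488, 86.0 and 177 CPM in wild type. Its groups overlapped (log2 fold change 0.43, edgeR adjusted p 0.651). For Hp and Apoe, summed pan-macrophage markers ran from 184 to 3359 FPKM in CD44 KO and from 3369 to 7011 FPKM in wild type, and the part of these cells in the values was not tested.

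Among 12 tested hepatocyte cell genes 2 rose and 1 fell, and their median log2 fold change was 1.83 beside 0.03 over all genes tested. Tfr2, the iron-sensing transferrin receptor 2, had 61, 13 and 38 expected counts in CD44 KO, against 536, 282 and 617 in wild type (edgeR log2 fold change -3.52 with SE 0.60 and adjusted p 0.0438). The call of Tfr2, the gene that fell, was kept only without CD44 KO replicate 1, and in the other fits that left out 1 library its edgeR adjusted p ran from 0.0547 to 0.236. Cyp2e1, an ethanol-metabolising cytochrome that fat also makes, stood at 4185 ± 1077 CPM in CD44 KO and 245 ± 361 CPM in wild type and was not called (log2 fold change 4.09, edgeR adjusted p 0.107).

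Receptors and partners of the 8 proteins were mostly not called. Of 41 listed genes 34 were tested, 0 rose and 1 fell, with a median log2 fold change of -0.28 beside 0.03 over all genes tested. At an unadjusted p under 0.05, edgeR had 7 of the 34 higher and 10 lower, beside 2260 higher and 2032 lower of all 13829 tested. At an adjusted p under 0.05, DESeq2 called 3 of the 41 higher and 10 lower, beside 1487 higher and 1459 lower of 22322 genes. The gene that fell was Tfr2, which also stands in the hepatocyte list. Hfe, whose protein binds transferrin receptors, stood at 67.8 ± 18.3 CPM in CD44 KO and 207 ± 79.4 CPM in wild type (log2 fold change -1.61, edgeR adjusted p 0.0596). The ferritin light chain gene Ftl1, which stores iron that transferrin delivers, had a log2 fold change of -1.39 (edgeR adjusted p 0.125). Beside Tfr2, Hfe and Ftl1, the summed pan-macrophage markers ran from 184 to 3359 FPKM in CD44 KO and from 3369 to 7011 FPKM in wild type, with a median log2 fold change of -2.10, and their part in these values was not tested. Tfrc, the main transferrin receptor gene, had 57.0, 33.0 and 45.5 CPM in CD44 KO, against 27.0, 41.1 and 21.7 CPM in wild type, so the groups overlapped. Among the heavy chain genes whose products bikunin joins, Itih4 had 1.09, 1.04 and 7.56 FPKM in CD44 KO, against 0.31, 0.09 and 0.17 in wild type, with no overlap (log2 fold change 4.15, edgeR adjusted p 0.0739). Itih3 had 0.29, 0.34 and 4.34 FPKM in CD44 KO, against 0.27, 0.32 and 0.55 in wild type. Itih5, read in fat at 58.6 to 65.9 FPKM in CD44 KO and 55.5 to 61.2 FPKM in wild type, was abundant in both genotypes. Mttp, which loads lipid onto apolipoprotein B, had 1.25, 3.92 and 1.38 FPKM in CD44 KO, against 0.65, 0.71 and 0.99 in wild type, with its highest value in the library that held epididymis transcripts. Lrp2, the megalin receptor that takes up albumin, transferrin and retinol-binding protein in epithelia, had 4.99, 115 and 2.59 CPM in CD44 KO, against 0.0590, 0.539 and 0.157 CPM in wild type, again highest in CD44 KO replicate 2.

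Markers of other tissues and cell types were highest in varied libraries. Of 14 enterocyte markers, the intestinal cells that also make Apoa1 and Apob, 4 were highest in CD44 KO replicate 3, 2 of them being Apoa4 and Fabp1, which the liver also makes. Their summed FPKM ran from 30.1 to 118 in CD44 KO and from 142 to 421 in wild type, mostly Anpep and Apobec1, and Cdx2 had at most 1 count in any library. The enterocyte marker Lgals4, a galectin gene, went the other way and rose, with 166, 231 and 269 expected counts in CD44 KO, against 69, 44 and 67 in wild type (edgeR log2 fold change 2.05 with SE 0.32 and adjusted p 0.0390). This call was kept only without CD44 KO replicate 1, and in the other fits that left out 1 library its edgeR adjusted p ran from 0.0525 to 0.235. Among choroid plexus and kidney epithelial markers, tissues that make Ttr, 11 of 15 had a count and 3 were highest in CD44 KO replicate 3. Otx2 and Kcnj13 were at 0 in every library, and the list summed to 261 to 391.6 FPKM in CD44 KO and 125 to 359 FPKM in wild type, mostly Aqp1. Of this list Clic6, an intracellular chloride channel gene, rose, with 107, 76 and 97 expected counts in CD44 KO, against 3, 7 and 4 in wild type (edgeR log2 fold change 4.45 with SE 0.44 and adjusted p 0.0213). This call was lost without CD44 KO replicate 3, wild type replicate 2 or wild type replicate 3 (edgeR adjusted p 0.0812, 0.0832 and 0.189). The kidney gene Umod had 2, 0 and 18 counts in CD44 KO, against 0 in every wild type library. Pax8, an epithelial transcription factor gene, had 41, 1794 and 9 in CD44 KO, against 0, 3 and 1 in wild type, highest in the library with epididymis transcripts. Of 15 mesothelial markers 1 was highest in CD44 KO replicate 3 and 8 in CD44 KO replicate 2. The list summed to 94.1 to 319 FPKM in CD44 KO and 82.2 to 92.9 FPKM in wild type. Gene by gene the groups stood further apart than these sums. For 13 of the 15 every CD44 KO library lay above every wild type library, beside 17.7% of all genes with a count. Their median log2 fold change was 2.66, beside 0.03 over all genes tested, with 14 of 15 positive. By edgeR 1 was called higher and 0 lower. Mature adipocyte markers did lean to CD44 KO replicate 3, where 11 of 15 were highest. They summed to 43792, 34588 and 59434 FPKM in CD44 KO replicates 1 to 3, against 29407, 9849 and 17664 FPKM in wild type. Fabp4 and Cfd, at 19676 and 16557 FPKM, made up most of the sum in CD44 KO replicate 3. Cfd averaged 10919 FPKM in CD44 KO and 415 FPKM in wild type. Of the 15 markers 14 had a positive log2 fold change. Lep went the other way, with a mean of 264 FPKM in CD44 KO and 913 FPKM in wild type. Of the epididymis markers 16 of the 20 with a count were highest in CD44 KO replicate 2. The part of these cell types in the members' values was not tested.

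The tested genes most like a member were found by the root mean square difference of log2 CPM, centred on each gene's mean, over the 6 libraries. For Alb the nearest were Serpina1e at 1.51 and the acyl-CoA synthetase gene Acsm3 at 1.51. Acsm3 had 26.9, 61.0 and 70.6 CPM in CD44 KO replicates 1 to 3, against 0.423, 0.251 and 0.342 CPM in wild type, so its CD44 KO libraries differed far less among themselves than those of Alb. For Trf the nearest genes lay much closer, the growth factor gene Bmp2 at 0.06, the carnitine acetyltransferase gene Crat at 0.07 and Olfml1 at 0.07. Crat had 307, 314 and 480 CPM in CD44 KO, against 274, 179 and 216 CPM in wild type, the same order of libraries as Trf apart from the place of CD44 KO replicate 2.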

How the data were processed

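RNA was sequenced from epididymal fat of 3 CD44 KO and 3 wild type samples. Per the labels' protocols, mRNA was enriched with oligo(dT) beads and made into NEBNext Ultra libraries for a NovaSeq instrument. HISAT2, StringTie 1.3.1, RSEM and DESeq2 appear, with no role, in the submitters' processing notes. Genome build, annotation, alignment settings and strandedness: not given in the sources used here. The authors deposited expected counts (estimated counts per gene, not scaled; 7.57% to 8.3% of values per library are not whole) and, per the file headers, FPKM scaled by the authors for length and library size and given to 2 decimals. Their table of fold changes was not used here.

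Expected counts were rounded for the tests only. edgeR 4.0.16 in R 4.3.3 kept 13829 of 22322 genes (filterByExpr by group), scaled by TMM, and compared CD44 KO with wild type by the robust quasi-likelihood F-test with Benjamini-Hochberg adjustment over all tested genes. SE is the absolute log2 fold change over the square root of F. The fits were checked on simulated counts. DESeq2 1.42.0, its size factors, no filter, each library left out and a replicate block were alternatives. Log2 CPM used a prior count of 2. Ratios of 2 counts carry 95% exact binomial (Clopper-Pearson) intervals for counting error.

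The 8 genes, the lists and the rule for naming genes were chosen with earlier results of these data known. The rule took the 8 genes, per list up to 6 genes of lowest p and 6 of highest mean FPKM, and 3 nearest genes for each of the 8 that passed the filter. Of 22322 identifiers, 22267 matched GENCODE M21, which gave positions. Promoter sequences are RefSeq's. Some genes that the rule took or that were called are not reported here.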

Additional observations from a re-analysis of the deposited data

How the results depend on the processing

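Over all genes edgeR called 362, against 2946 with DESeq2, 230 with no filter on low counts, 0 with the replicate number as a block (1585 higher and 1220 lower at an unadjusted p under 0.05), 12 with CD44 KO replicate 1 as the only knockout library (an alternative chosen after seeing the data, in which the lone library is assumed to vary like the wild type), and 0 to 2370 when each library was left out in turn. The 0 was without wild type replicate 3 (1275 higher and 1111 lower unadjusted) and the 2370 without CD44 KO replicate 1. The 3 calls among other liver plasma proteins became 31 with DESeq2, 0 with the replicate block, 0 with CD44 KO replicate 1 alone and 0 to 22 when each library was left out. The 3 among hepatocyte cell genes became 14, 0, 0 and 0 to 11 under the same alternatives. The 1 among receptors and partners became 13, 0, 0 and 0 to 13, and 0 with no filter. The cause of these shifts was not tested. The deviations of same-numbered libraries from their group means correlated at -0.321, -0.218 and -0.018 across genes. Those of differently numbered libraries correlated at -0.177 to 0.287. With 3 libraries a group, these values cannot show whether the numbers pair the samples, which the labels do not state.

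The log2 fold change of Alb, 7.70, ran from 5.59 to 8.88 when each library was left out and was 2.85 with CD44 KO replicate 1 alone. That of Trf, 0.69, ran from 0.42 to 0.93. Both were positive in every alternative run. With CD44 KO replicate 1 alone the mean log2 CPM difference was 0 for Ttr, Ambp and Apob and 1.34 for Apoa1. At these depths a gene with 0 reads in a library can be present below about 3 counts.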

Other observations

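A search of the whole table for genes with 0 expected counts in every wild type library and at least 10 in CD44 KO replicates 2 and 3 returned 23 genes. The pattern was noticed in the data and set afterwards, so no test was made. These were 4 of the plasma protein genes above (Ttr, Ambp, Apoa1 and Apob), 6 other liver plasma protein genes, 3 hepatocyte cell genes and 10 genes of none of the lists. Several of the 10 are liver genes by textbook knowledge, and they stand in both orders of replicates 2 and 3. Mug1 and Pzp, alpha-macroglobulin protease inhibitors, had 29 and 25 expected counts in CD44 KO replicate 2 and 209 and 828 in replicate 3. Mat1a, the liver form of methionine adenosyltransferase, had 46 and 226 in replicates 2 and 3. Afm, Ftcd and Gjb1, which the liver also makes, had more counts in replicate 2, as given below. Replicate 2 is the library with epididymis transcripts, and their part in these values was not tested. Of the 23 genes 18 were higher in CD44 KO replicate 3 and 5 in replicate 2. The 5 were Gjb1 with 263 counts in replicate 2 and 21 in replicate 3, the kidney androgen-regulated protein gene Kap with 317 and 27, the histidine catabolism gene Ftcd with 81 and 14, Afm, which encodes afamin, with 30 and 10, and Erbb4 with 26 and 22. The mirror search, 0 in every CD44 KO library and at least 10 counts in wild type replicates 2 and 3, returned 9 genes.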
